A study of Mus musculus with 11 samples.

Results

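The 9 genes followed here are the globins and 2 markers of the red cell lineage, taken by their symbols from a given list, out of 46078 genes in each count file. They are the embryonic globins Hba-x, Hbb-y and Hbb-bh1, the adult-type globins Hba-a1, Hba-a2, Hbb-bs and Hbb-bt, the erythroid transcription factor Gata1, and Alas2, the erythroid enzyme of the first step of heme synthesis. Their counts were read in all 11 libraries of a study of L3mbtl3, a chromatin protein with MBT domains, in the mouse embryonic dorsal telencephalon, the part of the forebrain that forms the neocortex. All mice were of the CD-1 strain.

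At E15.5 there were 2 groups of 3 libraries, both from wild-type embryos electroporated in utero at E12.5 and both made from GFP-positive cells sorted at E15.5. The GFP controls received the GFP plasmid pCIG2 alone, and the gain libraries received pCIG2-L3mbtl3. At E12.5 the libraries were made from microdissected tissue without a sort. They were 1 wild-type library, 2 heterozygote libraries (L3mbtl3 +/-) and 2 libraries labelled knockout (L3mbtl3 -/-), and the heterozygote and wild-type libraries together are the 3 controls. The labels do not state that each library is a different embryo, and the p-values therefore cover no more than the spread among these samples, which may be technical.

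Hemoglobin is made of alpha-like and beta-like globin chains. The first red cells of the mouse embryo form in the yolk sac and enter the circulation with their nuclei. They carry embryonic globins (Hba-x of the alpha type, Hbb-y and Hbb-bh1 of the beta type). Red cells made later in the fetal liver carry mainly adult-type globins. The ratio of adult-type to embryonic globin mRNA in blood therefore moves with developmental age, and brain tissue holds that blood in its vessels.

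The coding sequences decide which globins a short read can tell apart, so the first 75 coding bases, the length of 1 read, are shown for 5 genes. They start in exon 1 at the start codon, on GRCm38 at chr11:32283707-32283709 (Hba-a1, plus strand), chr11:32276664-32276666 (Hba-x, plus strand), chr7:103827873-103827875 (Hbb-bs, minus strand), chr7:103853150-103853152 (Hbb-y, minus strand) and chr7:103843108-103843110 (Hbb-bh1, minus strand), and were read from GENCODE M21 transcripts. Capitals mark bases that differ from Hba-a1 (for Hba-x) or from Hbb-bs (for Hbb-y and Hbb-bh1).
Hba-a1: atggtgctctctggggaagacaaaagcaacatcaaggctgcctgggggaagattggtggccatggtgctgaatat
Hba-x: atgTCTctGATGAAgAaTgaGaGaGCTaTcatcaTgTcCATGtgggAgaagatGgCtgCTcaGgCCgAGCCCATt
Hbb-bs: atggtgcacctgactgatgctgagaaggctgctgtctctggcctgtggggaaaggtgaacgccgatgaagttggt
Hbb-y: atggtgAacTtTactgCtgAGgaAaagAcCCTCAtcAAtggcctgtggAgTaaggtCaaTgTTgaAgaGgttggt
Hbb-bh1: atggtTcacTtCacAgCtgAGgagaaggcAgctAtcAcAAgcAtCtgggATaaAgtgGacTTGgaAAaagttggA
Hba-x differed from Hba-a1 at 38 of these 75 bases, and Hbb-y and Hbb-bh1 differed from Hbb-bs at 23 and 24. Hba-a2 and Hbb-bt differed from Hba-a1 and Hbb-bs at 0 of them. Over the whole coding sequence the 2 adult alpha genes differed at 1 of 426 bases (99.77% identity) and the 2 adult beta genes at 1 of 441 (99.77%), while Hba-x shared 61.74% of bases with Hba-a1, and Hbb-y shared 74.38% and Hbb-bh1 73.92% with Hbb-bs. Of all 75-base windows along the transcript, 37.8% of those of Hba-a1, 19% of Hba-a2, 43.4% of Hbb-bt and 35.7% of Hbb-bs occurred in no other gene's transcripts. For Hba-x, Hbb-y and Hbb-bh1 that share was 100%. The counts of the 4 adult-type genes are therefore uncertain one by one, and the ratios below use the sums Hba-a1 + Hba-a2 and Hbb-bs + Hbb-bt. Any shared reads left out of the counts are missing from these sums as well. The adult-type levels and their ratios to embryonic genes would then be too low. The recorded counting command does not state how such reads were treated. The embryonic genes can be counted on their own.

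The globin promoters are shown because their genes changed together between the stages. The sequences are the 250 bases before the RefSeq start of Hba-x (chr11:32276350-32276599, plus strand), Hba-a1 (chr11:32283422-32283671, plus strand), Hbb-y (chr7:103853208-103853457, minus strand) and Hbb-bs (chr7:103827929-103828178, minus strand) on GRCm38.p6, from RefSeq. Capitals mark matches on either strand to 4 motifs. GATAA is the core read by GATA factors, while CCAAT is bound by factors such as NF-Y. CACCC is read by Kruppel-like factors such as Klf1, and TATAA is the core of the TATA box. Adjoining capitals can belong to different motifs.
Hba-x: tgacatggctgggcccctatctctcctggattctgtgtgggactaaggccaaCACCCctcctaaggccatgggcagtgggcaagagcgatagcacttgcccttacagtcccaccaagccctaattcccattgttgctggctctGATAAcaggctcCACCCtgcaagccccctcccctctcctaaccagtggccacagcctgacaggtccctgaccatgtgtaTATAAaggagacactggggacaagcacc
Hba-a1: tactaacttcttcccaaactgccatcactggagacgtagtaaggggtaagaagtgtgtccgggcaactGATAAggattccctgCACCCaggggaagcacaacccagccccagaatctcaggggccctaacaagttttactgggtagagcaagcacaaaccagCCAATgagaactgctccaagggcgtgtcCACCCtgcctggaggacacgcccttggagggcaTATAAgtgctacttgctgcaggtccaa
Hbb-y: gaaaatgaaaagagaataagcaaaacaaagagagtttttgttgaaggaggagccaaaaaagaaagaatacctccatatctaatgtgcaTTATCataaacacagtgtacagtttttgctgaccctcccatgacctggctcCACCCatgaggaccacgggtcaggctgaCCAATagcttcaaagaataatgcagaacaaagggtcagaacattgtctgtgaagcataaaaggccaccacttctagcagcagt
Hbb-bs: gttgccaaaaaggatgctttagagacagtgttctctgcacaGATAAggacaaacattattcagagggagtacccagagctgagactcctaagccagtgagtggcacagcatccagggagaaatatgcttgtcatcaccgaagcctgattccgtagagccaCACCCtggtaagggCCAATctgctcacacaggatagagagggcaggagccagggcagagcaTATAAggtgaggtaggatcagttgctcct
GATAA and CACCC matched in all 4 windows. CCAAT matched in all but Hba-x, and TATAA in all but Hbb-y. Among 32851 mouse promoter windows of this length, 22.6% held GATAA, 33.8% held CCAAT, 52% held CACCC and 22.8% held TATAA, and 0.968% held all 4, as the adult-type Hba-a1 and Hbb-bs windows did. The 300-base windows of Hba-a1 and Hba-a2 (250 bases before and 50 after the start) shared an identical run of 297 bases. A match is a description of the letters and not a site of binding.

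Library totals ran from 16527551 to 26658718 counts, where a count of 0 allows up to 3 counts, or 0.113 to 0.182 CPM (counts scaled to a library total of 1000000). Such floors and the intervals below cover counting error only, since these reads carry no molecular identifiers. L3mbtl3 itself stood at 46.4 to 53.0 CPM in the GFP controls and at 824 to 1411 CPM in the gain libraries. At E12.5 it stood at 61.5 to 64.7 CPM in the controls and at 74.5 and 77.2 CPM in the libraries labelled knockout, which were not lower. The label is therefore not borne out by the gene's own count, which does not show whether protein was made, and a direction against these libraries is a direction between labels. All 10 fixed cortical markers, among them Emx1 and Tbr1, were detected in every library.

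Red cell mRNA was a clear part of the E12.5 tissue. The 7 globins held 3391 and 2597 CPM in the heterozygotes, 3025 CPM in the wild-type library, and 3133 and 3044 CPM in the libraries labelled knockout, so the 5 libraries lay within a narrow band of 0.26% to 0.339% of all counts. The embryonic beta globin Hbb-y alone made up 68.5% to 71.0% of those counts. The 9 matched red cell markers, among them Gata1, Alas2, Klf1 and Slc4a1, summed to 84.5 to 130 CPM, and none of them was at 0 in any of these libraries. In bulk tissue fewer cells of a type and less RNA per cell cannot be told apart.

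Levels between genes are compared per kb of exon. Those of adult-type genes may be too low, since reads shared between genes may be missing from the counts. At E12.5 Hbb-y stood first, at 3201 ± 323 CPM per kb (SD, n = 5). Hba-a1 followed at 468 ± 25.7 and Hba-x at 286 ± 44.6 CPM per kb, and the 5-library ranges of these 3 genes did not overlap. Hbb-bh1 at 135 ± 34.9, Hbb-bs at 132 ± 29.5 and Hbb-bt at 110 ± 25.3 CPM per kb came next, and their ranges overlapped, so their order was not settled. Alas2 stood at 15.0 ± 2.03, Hba-a2 at 1.09 ± 0.290 and Gata1 at 0.411 ± 0.203 CPM per kb, each range apart from its neighbours. Ranges do not settle the place of Hba-a2, since most of its 75-base windows are shared with Hba-a1. The embryonic alpha gene thus stood below the adult-type alpha gene at this age, while the embryonic beta gene Hbb-y stood far above both adult-type beta genes.

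**Figure D1:**
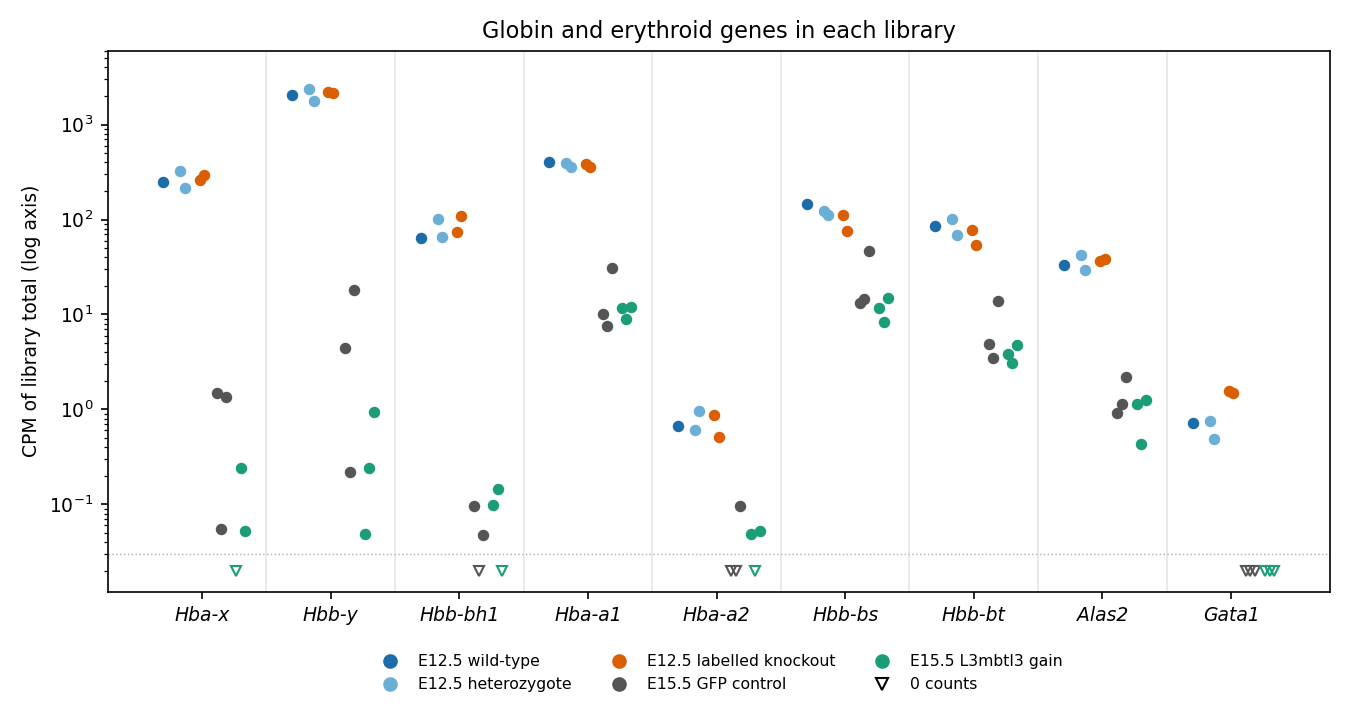
Level of each of the 9 genes in each library, in CPM of the library total on a log axis. Points are libraries coloured by group, and open triangles under the dotted line are libraries with 0 counts. Every gene stands higher in all 5 E12.5 libraries than in all 6 E15.5 libraries, and Gata1 has 0 counts in all of the latter.

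The sorted E15.5 libraries held little globin mRNA, and it was of another kind. Globins summed to 34.3, 25.8 and 111 CPM in the GFP controls and to 27.5, 21.1 and 32.6 CPM in the gain libraries, with GFP control 3 standing above the other 5. Per kb of exon the order was Hbb-bs at 21.1 ± 16.3, Hba-a1 at 16.7 ± 10.7, Hbb-bt at 8.03 ± 5.77 and Hbb-y at 6.0 ± 10.6 CPM (SD, n = 6), then Hba-x at 0.565 ± 0.739, Alas2 at 0.492 ± 0.243, Hbb-bh1 at 0.105 ± 0.0948 and Hba-a2 at 0.0495 ± 0.0596. The 6-library range of each gene overlapped that of the next one down, so this order is loose. Adult-type globins led in all 6 libraries. Hba-a1 carried 99.6% to 100% of the Hba-a1 and Hba-a2 counts in each of the 11 libraries, so the alpha sum is in effect the Hba-a1 count as the authors assigned it.

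**Figure D2:**
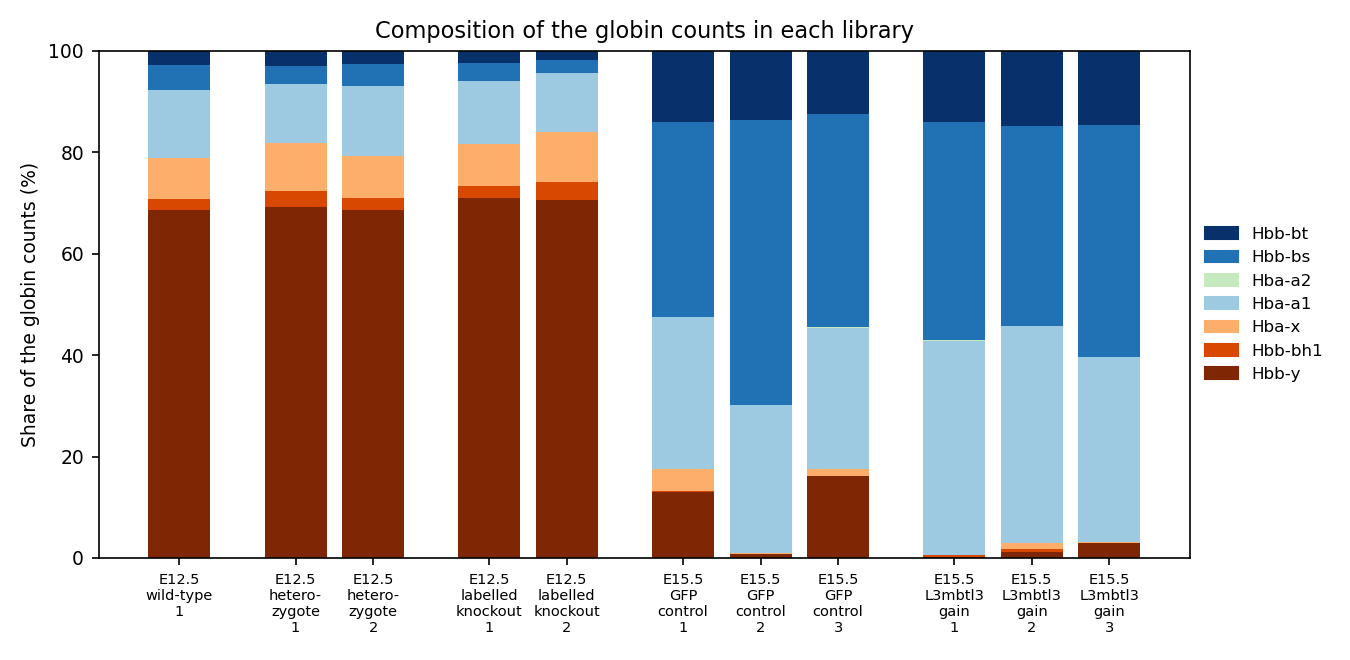
Share of each globin among the globin counts of a library, in percent, as stacked bars for each of the 11 libraries. The embryonic genes (brown to orange) fill 78.9% to 83.9% of the E12.5 bars and 0.535% to 17.6% of the E15.5 bars, most of the latter in GFP controls 1 and 3.

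The stage comparison set the 3 GFP controls against the 3 E12.5 controls and shows how the globin genes stand across the study. Age, electroporation, dissociation and sorting differ together between these groups and cannot be told apart. Here 62.3% of the 15968 genes tested were called by edgeR's quasi-likelihood test, 31.3% as lower at E15.5 and 31.1% as higher, and 72.5% did not overlap between the groups. Of the 9 genes 8 were tested, and all 8 were lower. Hba-a2, Hbb-bh1, Hba-x and Hbb-y had 0 to 4 counts in some or all GFP controls and passed the count filter through the E12.5 libraries, so this count supports nothing by itself. Gata1 had 0 counts in every E15.5 library and was not tested.

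The embryonic globin genes stood further apart between the stages than the adult-type ones. Hbb-y, the main embryonic beta globin, had 62622 and 29409 counts in the heterozygotes and 40796 in the wild-type library, against 93, 4 and 372 counts in the GFP controls. Hba-x, the embryonic alpha globin, had 8621, 3554 and 4893 counts against 31, 1 and 28, and Hbb-bh1, the other embryonic beta globin, had 2705, 1075 and 1257 against 2, 0 and 1. No GFP control reached any E12.5 control for any of them, and GFP control 2 held almost none of the 3. Pooled over the libraries of a group and set per library total, Hbb-y was 270 times higher at E12.5 (exact 95% interval 247 to 296) and Hba-x 271 times (211 to 356). For Hbb-bh1, with 3 counts over all GFP controls, the ratio was 1601 (548 to 7765). These intervals leave out the spread between libraries, and no p is given for these 3 genes. Without GFP control 3 the fitted log2 fold change of Hbb-y was -9.49, against -7.79 with it.

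The adult-type genes fell less. Hba-a1 had 10472, 5898 and 7947 counts in the E12.5 controls and 213, 137 and 643 in the GFP controls. Hbb-bs had 3245, 1837 and 2899 counts against 275, 265 and 966, and Hbb-bt had 2715, 1134 and 1670 against 101, 64 and 287. Within the GFP controls the third library was highest for all 3 genes, yet it stayed below every E12.5 control in CPM. The fold changes by edgeR's quasi-likelihood test were -4.27 for Hba-a1 (SE 0.566, adjusted p = 0.000832), -3.23 for Hbb-bt (SE 0.531, adjusted p = 0.00207) and -2.06 for Hbb-bs (SE 0.518, adjusted p = 0.0123) in log2 units. Without GFP control 3 they came to -5.19, -4.10 and -2.95. Hba-a2 had 16, 16 and 13 counts against 0, 0 and 2, a pooled ratio of 21.5 (exact 95% interval 5.60 to 183).

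Both erythroid markers followed. Alas2 had 1118, 484 and 656 counts in the E12.5 controls and 19, 21 and 46 in the GFP controls, and it fell by 4.32 on the log2 scale (SE 0.364, adjusted p = 0.000136, edgeR's quasi-likelihood test). Gata1 had 20, 8 and 14 counts in the E12.5 controls and 0 in each GFP control, so it was at least 13.4-fold higher at E12.5, set against a floor of 3 counts over the group. With the counting error of the 42 counts at E12.5 taken in as well, the exact lower 95% limit of the ratio was 10.4. Relative to the counted globin, Alas2 was higher in the sorted libraries. There were 11.03 to 12.7 Alas2 counts per 1000 globin counts in the 5 E12.5 libraries and 20.0 to 44.6 in the 6 E15.5 libraries, with no overlap. The latter rest on 9 to 46 Alas2 counts per library. Globin counts were mostly embryonic at E12.5 and mostly adult-type at E15.5. Any shared adult-type reads missing from the counts would therefore raise the E15.5 values more, and the size of that effect was not tested.

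Other genes of the red cell program were read from fixed lists in the same comparison. Of 11 red cell membrane genes 10 were tested, 8 fell and 1 rose, with a median of -6.07 in log2 units against -0.03 over all genes tested. Kel and Epb42 had 0 counts in all GFP controls and stood at 6.90 to 10.3 and 2.72 to 6.45 CPM in the E12.5 controls. The gene that rose was Ank1, an ankyrin that neurons also make, by 2.71 (SE 0.266, adjusted p = 0.000241, edgeR's quasi-likelihood test). Of 8 erythroid transcription factors 7 were tested, 5 fell and 1 rose. Tal1 fell by 3.96 and Gata2 fell by 3.55, Nfe2 stood at 0 to 0.0479 CPM in the GFP controls against 1.53 to 2.85, and the cofactor Ldb1, which many tissues make, rose by 1.10. Of 9 other erythroid genes 5 were tested and 5 fell, with Trim10 at -3.95, the erythropoietin receptor Epor at -2.68 and the mitochondrial iron carrier Slc25a37 at -2.45.

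Genes with a known part in globin switching did not move one way. Of 5 tested, 2 rose and 3 fell by edgeR's quasi-likelihood test. Bcl11a, a repressor of embryonic globins in red cells that cortical neurons also make, rose by 1.36 (SE 0.138, adjusted p = 0.000280) and Zbtb7a by 0.63. Lin28b, an RNA-binding protein of early progenitors, fell by 2.29 (SE 0.422, adjusted p = 0.00336), and Sox6 (-2.05) and Myb (-1.98) fell too. All 8 shared heme synthesis enzymes were tested, and 3 fell, with Fech at -0.85 and Urod at -0.25, while Uros rose by 1.02, a narrow spread beside the fall of Alas2. Among other globins, 2 of 7 were tested. Cytoglobin (Cygb) rose by 1.49, and Hbb-bh0, a gene of the beta cluster, had 40, 49 and 50 counts in the E12.5 controls and 0 in every E15.5 library.

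Most endothelial and platelet markers were lower too. Of 10 endothelial markers 9 fell, led by Tek (-6.16), Kdr (-5.88) and Emcn (-5.75), and their summed level was 443 to 527 CPM in the E12.5 controls and 17.3 to 25.5 CPM in the GFP controls. Of 6 platelet markers 4 fell and Gp1bb rose, with Ppbp and Treml1 at 0 in all GFP controls. Of 10 microglia markers 3 fell, a share near that of all genes, with sums of 72.8 to 82.3 CPM against 18.3 to 42.5 CPM. The red cell markers without globins summed to 1.64 to 2.84 CPM in the GFP controls, where 4 or 5 of the 9 were at 0. The part of vessel or blood content in the globin differences was not tested.

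The ratio of adult-type to embryonic globin within a library does not change with the library total. At E15.5 it rests on few embryonic counts (Hba-x at 0 to 31 per library), so it is loose there. It is called a clock of developmental age here, but age, electroporation, dissociation and sorting differ together between the stages. For the alpha genes there were 1.22 and 1.66 adult-type counts per embryonic count in the heterozygotes, 1.63 in the wild-type library and 1.48 and 1.22 in the libraries labelled knockout. In the GFP controls the alpha ratio was 6.87, 137 and 23.0. In the gain libraries it was 37.8 and 226 in replicates 2 and 3, and gain replicate 1 had 238 adult-type counts and no Hba-x count, a ratio of at least 79.3 at the floor of 3 counts. The highest E12.5 library and the lowest E15.5 library were far apart.

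The beta clock ran over a wider range. There were 0.0912 and 0.0975 adult-type beta counts per embryonic beta count in the heterozygotes, 0.109 in the wild-type library and 0.0817 and 0.0579 in the libraries labelled knockout. The GFP controls stood at 3.96, 82.3 and 3.36, and the gain libraries at 107, 29.9 and 20.7. At E12.5 the beta ratio was below 1 in each library while the alpha ratio was above 1. In each E15.5 library both were above 1.

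With all E15.5 libraries set against all E12.5 libraries, the mean beta ratio was 7.90 log2 units higher (6 against 5 libraries, two-sided exact permutation p = 0.00216, adjusted 0.0173 over 8 ratio tests). The mean alpha ratio was 4.98 log2 units higher (5 against 5, the library without an Hba-x count left out, exact permutation p = 0.00794, adjusted 0.0317). Between GFP controls and E12.5 controls alone the differences were 6.70 and 4.23 log2 units, each with no overlap and an exact permutation p of 0.1, the smallest that 3 against 3 libraries can give (adjusted 0.16). With 1 GFP control left out the beta difference was 7.39, 5.21 or 7.51 and the alpha difference 5.24, 3.08 or 4.37 log2 units, in the order of replicates 1, 2 and 3. Both were smallest without replicate 2. The adult share of all globin counts put the same order in percent, with 16.1% to 21.1% at E12.5 and 82.4% to 99.5% at E15.5.

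**Figure D3:**
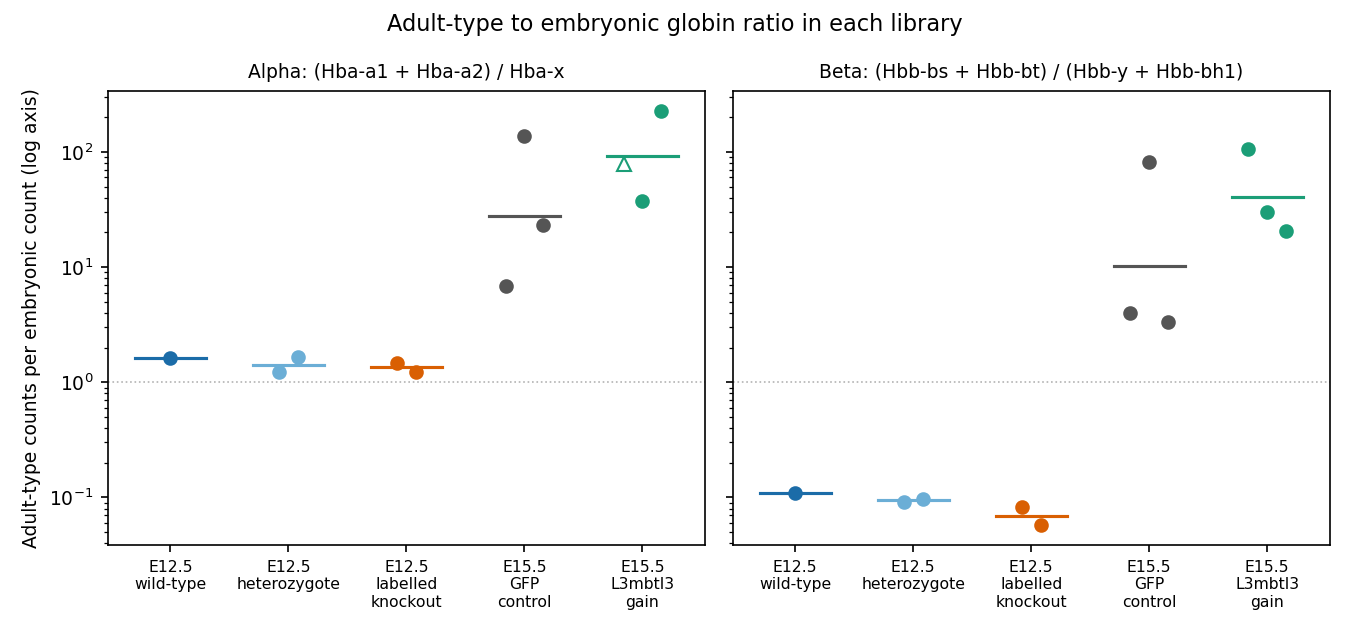
Adult-type globin counts per embryonic globin count in each library, for the alpha genes (left) and the beta genes (right), on a log axis. Points are libraries, bars are group means of the log2 ratios, the dotted line marks a ratio of 1, and the open triangle is the lower limit for the gain library with no Hba-x count. All E15.5 points lie above all E12.5 points, and the GFP controls span 3.36 to 82.3 for beta.

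Within E15.5 the GFP controls differed from each other in embryonic globin. Adult-type genes made up 82.4% (Wilson 95% interval 79.4% to 85.0%) of the globin counts in replicate 1, 98.9% (97.5% to 99.6%) in replicate 2 and 82.6% (81.0% to 84.1%) in replicate 3. The second of these intervals lay apart from the other two, so replicate 2 held fewer embryonic counts than counting error allows. The gain libraries had 99.5% (98.4% to 99.8%), 97.1% (95.02% to 98.3%) and 96.9% (95.2% to 98.0%), close to that library.

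The gain comparison asks whether these genes differ when L3mbtl3 is raised. No globin or erythroid gene was called. By edgeR's quasi-likelihood test 2 of 14698 genes were called (0.0136%), 1 higher and 1 lower (0.0068% each), L3mbtl3 being the higher one, 1264 had an unadjusted p under 0.05, and the CPM of 16.7% did not overlap. DESeq2 called 81 genes and no globin or erythroid gene among the 9. Of the 9 genes 5 passed the count filter, namely Hba-a1, Hbb-bs, Hbb-bt, Hbb-y and Alas2, and none of these separated the groups.

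Hbb-y had 1, 5 and 18 counts in the gain libraries against 93, 4 and 372 in the GFP controls. Its log2 fold change was -4.23 (SE 1.45, adjusted p = 0.551, edgeR's quasi-likelihood test). GFP controls 1 and 3 were high, and GFP control 2 lay within the range of the gain libraries. With 1 library left out the value ran from -5.69 (without gain replicate 3) to -2.48 (without GFP control 3). Hba-x showed the same layout, with 0, 5 and 1 counts against 31, 1 and 28. Pooled, the GFP controls held 10.1 times more Hba-x per library total than the gain libraries (exact 95% interval 4.36 to 28.5, counting error only, which leaves out the spread between libraries). Hbb-bh1, at 2, 3 and 0 counts against 2, 0 and 1, was at or under the floor on both sides.

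For the adult-type genes the groups overlapped too. Hba-a1 had 237, 189 and 225 counts in the gain libraries, Hbb-bs 241, 174 and 282, and Hbb-bt 79, 65 and 90, all close to GFP controls 1 and 2 and under GFP control 3. The log2 fold changes were -0.60 for Hba-a1 (SE 0.522, adjusted p = 0.710), -1.11 for Hbb-bs (SE 0.526, adjusted p = 0.585) and -0.94 for Hbb-bt (SE 0.531, adjusted p = 0.621) by edgeR's quasi-likelihood test. Without GFP control 3 they came to 0.32, -0.21 and -0.06, so that library set their size. Alas2 had 23, 9 and 24 counts against 19, 21 and 46, a log2 fold change of -0.61 (SE 0.552, adjusted p = 0.719, edgeR's quasi-likelihood test). Alas2 is X-linked, and Xist, the transcript of the silenced X of females, stood at 2509 and 2539 CPM in gain replicates 1 and 3 and at 0 to 1.82 CPM in gain replicate 2 and the GFP controls. Its part in the Alas2 value was not tested.

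The clock did not separate the gain libraries from the GFP controls. The mean beta ratio was 1.97 log2 units higher in the gain libraries (3 against 3, exact permutation p = 0.3, adjusted 0.4) and the mean alpha ratio 1.73 higher (2 against 3, exact permutation p = 0.4, adjusted 0.457), with overlap in both. With 1 library left out the beta difference ran from 1.16 (without GFP control 3) to 3.47 (without GFP control 2) and the alpha difference from 0.44 (without gain replicate 3) to 3.02 (without gain replicate 2). The smallest p these designs can give is 0.1. With Hbb-bh1 alone as the embryonic gene the beta difference turned to -2.10 log2 units, on 0 to 3 embryonic counts per library.

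No member of the other fixed lists was called in the gain comparison. The 2 genes with the smallest p were Lmo2 (-0.45) and Ldb1 (-0.16) among 3 tested erythroid transcription factors, Zbtb7a (-0.20) and Sox6 (0.39) among 5 switching regulators, Ank1 (-0.41) and Sptb (-0.01) among 2 red cell membrane genes, and Gp1bb (-0.42) and Itga2b (-0.00) among 2 platelet markers, in log2 units. Slc25a37 (0.14) stood among 3 other erythroid genes, Fech (-0.16) among 8 heme synthesis enzymes, and Cygb (-0.48) was the 1 tested gene of the other globins. The lists of microglia and endothelial cells lay lower. The 10 microglia markers summed to 6.72 to 9.38 CPM in the gain libraries and to 18.3 to 42.5 CPM in the GFP controls, with a median of -2.37 over 9 tested, and the 10 endothelial markers to 9.39 to 16.7 against 17.3 to 25.5 CPM, with a median of -1.39 over 8. The median over all genes was -0.03. Their part in the globin values was not tested.

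The loss comparison set the 2 libraries labelled knockout against the 3 E12.5 controls. Of the 9 genes only Gata1 was called, and it was higher in the libraries labelled knockout. All 7 globins and Alas2 missed the threshold. By edgeR's quasi-likelihood test 7.41% of 16361 genes were called, 3.63% as higher and 3.78% as lower, and the CPM of 38.6% did not overlap between the groups, so 1 of 9 genes called and 2 of 9 without overlap (Gata1 and Hbb-bs) are near or under these shares.

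Gata1, the GATA factor that red cell, platelet and mast cell precursors need, had 32 counts in each library labelled knockout and 20, 8 and 14 in the heterozygotes and the wild-type library. In CPM these were 1.57 and 1.49 against 0.750, 0.484 and 0.712, without overlap. Gata1 rose by a log2 fold change of 1.20 (SE 0.298, adjusted p = 0.0319, edgeR's quasi-likelihood test). The call rests on few counts. It was lost when any 1 of the 5 libraries was left out (log2 fold change 1.06 to 1.33, adjusted p = 0.0511 to 0.129) and in a fit of all 11 libraries (1.22, adjusted p = 0.803). Gata1 too is X-linked. Xist stood at 3082 CPM in knockout-labelled replicate 2, at 0.736 CPM in knockout-labelled replicate 1 and at 0.305 to 1.8 CPM in the controls. The part of the X in the Gata1 value was not tested.

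The globins stayed close to their control levels. Hbb-y had 45339 and 46188 counts in the libraries labelled knockout (log2 fold change 0.09, SE 0.127, adjusted p = 0.771), Hba-x 5312 and 6326 (0.08, SE 0.223, adjusted p = 0.890) and Hbb-bh1 1502 and 2361 (0.26, SE 0.348, adjusted p = 0.760) by edgeR's quasi-likelihood test. Hba-a1 had 7841 and 7719 counts (-0.04, SE 0.0553, adjusted p = 0.729), and Hba-a2 had 18 and 11 (-0.05, SE 0.387, adjusted p = 0.964). Each of these genes overlapped the controls in CPM.

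The 2 adult-type beta genes stood lowest in knockout-labelled replicate 2. Hbb-bs was at 110 and 76.6 CPM in the libraries labelled knockout and at 122, 111 and 147 CPM in the controls (log2 fold change -0.43, SE 0.231, adjusted p = 0.401, edgeR's quasi-likelihood test). Hbb-bt was at 77.5 and 54.2 CPM against 102, 68.6 and 84.9 (-0.37, SE 0.264, adjusted p = 0.529). The Hbb-bs groups were barely apart (110 against 111 CPM at the edge), and the Hbb-bt groups overlapped. Alas2 was at 36.3 and 38.8 CPM against 41.9, 29.3 and 33.4 (0.10, SE 0.148, adjusted p = 0.768).

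The beta ratio was lowest in the 2 libraries labelled knockout, in a design that cannot pass the threshold. Adult-type genes made up 7.56% (Wilson 95% interval 7.33% to 7.79%) and 5.48% (5.28% to 5.68%) of beta-like counts there, against 8.36% (8.16% to 8.57%), 8.88% (8.58% to 9.19%) and 9.80% (9.53% to 10.1%) in heterozygotes 1 and 2 and the wild-type library. The 5 intervals are all apart, so libraries of the same label also differed by more than counting error. The mean beta ratio was 0.52 log2 units lower (2 against 3, exact permutation p = 0.1, the smallest possible, adjusted 0.16), with no overlap. For the alpha genes the adult-type share was 59.7% and 55.0% against 54.9%, 62.5% and 61.9%, with overlap, and the mean ratio was 0.15 log2 units lower (exact permutation p = 0.6, adjusted 0.6).

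The other lists of the red cell program were then read in the loss comparison. All 10 tested red cell membrane genes had a positive log2 fold change, with a median of 0.41 against -0.00 over all genes, and 2 of them rose. These were Ermap, a red cell adhesion protein, at 9.28 and 9.07 CPM against 5.33, 5.32 and 6.10 (0.72, SE 0.127, adjusted p = 0.00568, edgeR's quasi-likelihood test), and Ank1 at 12.0 and 9.96 CPM against 7.92, 7.08 and 6.87 (0.59, SE 0.125, adjusted p = 0.0156). Slc4a1, the main anion exchanger of red cells, stood at 69.4 and 66.6 CPM against 63.2, 40.7 and 51.0 (0.39, SE 0.197, adjusted p = 0.354). All 8 erythroid transcription factors were positive and none was called, with a median of 0.18. Lmo2 (0.25, SE 0.0710, adjusted p = 0.0569) and Gfi1b (1.26, SE 0.415, adjusted p = 0.0941) had the smallest p, and Gfi1b stood at 0.687 and 1.21 CPM against 0.450, 0.484 and 0.254.

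Heme synthesis enzymes lay around 0. None of 8 was called, the median was -0.01, and Alad (0.21, adjusted p = 0.108) and Ppox (0.11, adjusted p = 0.300) had the smallest p by edgeR's quasi-likelihood test. Of 7 other erythroid genes tested 1 rose, Slc25a37, by 0.25 (SE 0.0645, adjusted p = 0.0371). Among 5 switching regulators only Lin28b was called. It stood at 30.1 and 26.7 CPM against 17.0, 14.6 and 15.3, and rose by 0.86 (SE 0.0879, adjusted p = 0.000223), while Bcl11a, at -0.15 (adjusted p = 0.0648), missed the threshold. Among other globins 4 of 7 were tested and none called, with Cygb at -0.36 (adjusted p = 0.173) and Hbb-bh0 at 0.31 (adjusted p = 0.562).

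Platelet markers lay higher beside them. Of 6 tested 5 were positive and 1 rose, Itga2b, the integrin of platelets and their precursors, at 12.0 and 13.4 CPM against 7.54, 6.66 and 5.85 (0.92, SE 0.128, adjusted p = 0.00163, edgeR's quasi-likelihood test). The list summed to 30.8 and 31.7 CPM in the libraries labelled knockout and to 15.2 to 22.1 CPM in the controls, and no marker was at 0. The red cell markers without globins summed to 130 and 126 CPM against 127, 84.5 and 98.7 CPM, where heterozygote 1 reached the libraries labelled knockout. Of 10 endothelial markers Slco1c1 fell by 1.13 (adjusted p = 0.00134), of 10 microglia markers Fcrls rose by 0.53 (adjusted p = 0.0340), and of 10 cortical markers Emx2 rose by 0.29 and Eomes fell by 0.38. Their part in the Gata1 value was not tested.

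**Figure D4:**
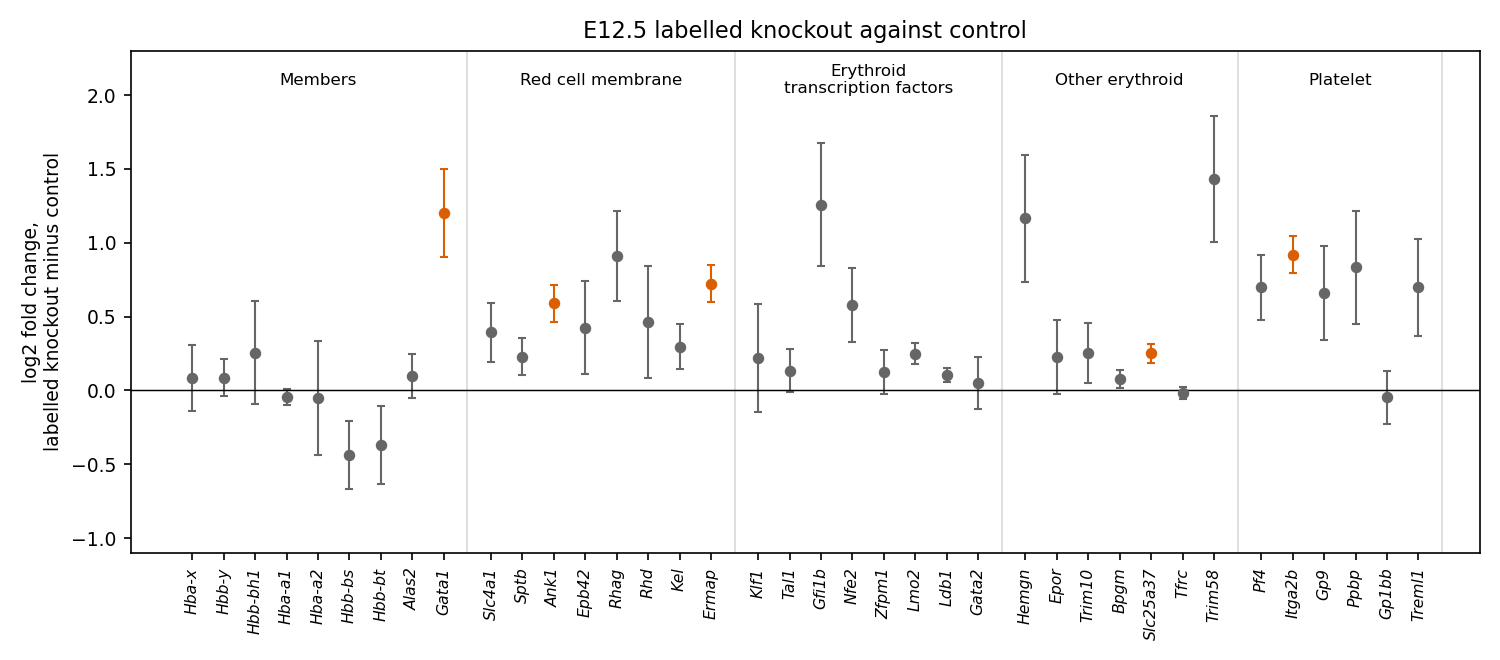
Log2 fold change of the libraries labelled knockout (n = 2) against the E12.5 controls (n = 3) for the tested globin and erythroid genes and for genes of the red cell and platelet lists. Points are edgeR estimates, bars are 1 SE, and orange marks an adjusted p under 0.05. The globins lie around 0 or below it, Gata1 lies at 1.20, and all red cell membrane genes shown lie above 0.

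The genes whose pattern over the 11 libraries lay nearest to the globins were found by the root mean square difference of centred log2 CPM among 16773 genes. For the summed embryonic globins the 5 nearest were Col3a1 (1.84 log2 units), Cyp1b1 (1.97), Lum (1.97), Osr1 (2.00) and Sulf1 (2.01). For the summed adult-type globins they were Rapgef3 (0.37), Ramp2 (0.38), Vsig10 (0.40), Pcsk5 (0.40) and 2810430I11Rik (0.41). The adult-type neighbours were much closer, and the embryonic pattern, with its spread among the GFP controls, had no near neighbour. All 10 genes were far higher at E12.5 than at E15.5, so the likeness includes the whole difference between the 2 kinds of library.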

How the data were processed

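Stranded libraries of polyadenylated RNA (11 in all) were sequenced from one end for 75 bases, as the labels' protocols state. The authors counted reads over exons with featureCounts 2.0.1 set to reverse strand, and deposited the raw count of each gene, per the file headers. The recorded command holds no option for reads that map to several places. The submitters' processing notes also name HISAT2 2.2.1, SAMtools 1.9, CASAVA 1.9, FastQC 0.11.8, deepTools 3.3.0 and the build GRCm38. The annotation release is not given in the sources used here.

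Symbols were found for 45143 of 46078 gene identifiers (97.971%). Groups came from the sample titles. CPM is a count scaled to a library total of 1000000, also in summed lists. Totals ran from 16527551 to 26658718 counts. Each comparison was fitted on its own libraries with edgeR 4.0.16 in R 4.3.3 (TMM factors, filterByExpr, robust quasi-likelihood fit), two-sided, with Benjamini-Hochberg adjustment over all genes tested and a threshold of 0.05. A gene is said to rise or fall only past that threshold. The SE is the absolute log2 fold change divided by the square root of the F statistic. The fit was tested on simulated counts. Globin ratios were compared with exact permutation tests in SciPy 1.17.1, adjusted over 8 tests. Shares carry Wilson 95% intervals, and pooled ratios carry exact ones.

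The 9 genes, the lists and the tests were chosen with earlier results of these data known. Genes named from a list are up to 3 called with the largest change, or the 2 with the smallest p where none was called (microglia and endothelial genes mostly by their sums). Ldb1, Ank1, Urod, Bcl11a, Zbtb7a and Gp1bb in the stage comparison and Slc4a1 and Bcl11a in the loss comparison were named outside this rule after their values were seen. Where a gene had 0 to 3 counts in a group its counts or CPM replace the fold change. The lists were other globins, heme synthesis, erythroid transcription factors, globin switching regulators, red cell membrane, other erythroid, platelet, endothelial, microglia and cortical genes. Single values of a few genes on the lists are not reported here, though counts and sums over the lists include them. Ahsp, on the other erythroid list, was not analysed here, nor was the CD15+ E14.5 experiment that the series' design names. Alternatives were DESeq2 1.42.0, library totals without TMM, no count filter, all 11 libraries in 1 fit, a replicate block, leaving out each library, and other definitions of the ratios. Same-numbered libraries were not treated as pairs.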

Additional observations from a re-analysis of the deposited data

Results flagged for a closer look

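GFP control 3 stood apart from the other 5 E15.5 libraries for 3 adult-type globins on the log2 CPM scale. It read 4.95 for Hba-a1, where the others lay between 2.91 and 3.57, 3.79 for Hbb-bt (others 1.65 to 2.28) and 5.54 for Hbb-bs (others 3.06 to 3.90). The gap from GFP control 3 to its nearest neighbour was 0.676, 0.704 and 0.663 of the whole range in turn, above the Dixon limit for 6 libraries. In all 21 sets of libraries were checked and 3 stood out, where chance alone gives about 1 in 20. The 3 values come from 1 library and from genes that share reads, so they are not separate events. The same library had 46 Alas2 counts and 0 Slc4a1 counts.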

How the results depend on the processing

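In the stage comparison 8 or 9 of the 9 globin and erythroid genes fell under every setting tried. In the main fit 31.3% of the 15968 genes tested fell. As several of the 9 passed the filter through the E12.5 libraries, the count supports nothing by itself. Where all 9 fell, Gata1 was among them with 0 counts at E15.5. The difference in the beta ratio between all E15.5 and all E12.5 libraries kept its side of the threshold under every setting tried. The same difference in the alpha ratio ran from 4.396 to 5.66 log2 units with 1 library left out. Without any 1 of the E12.5 libraries (4.92 to 5.03) its adjusted exact permutation p was 0.0635, above the threshold of 0.05. Another split of the remaining libraries then gave a mean difference at least as large. The groups stayed apart, with alpha ratios of at most 1.66 at E12.5 and at least 6.87 at E15.5.

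In the gain comparison the number of genes called was 81 with DESeq2 (46 higher, 35 lower), and leaving out 1 library gave 0 to 415 (0 to 294 higher, 0 to 121 lower), the 415 without GFP control 1. Without a count filter 2 genes were higher. The block on replicate number also gave 2 higher. No globin or erythroid gene was called under any of these. Hba-a1 turned to 0.32 without GFP control 3 (-0.95 to 0.32 over the left-out libraries), and the beta ratio to -2.10 with Hbb-bh1 as the only embryonic gene.

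In the loss comparison the number of genes called was 2266 without a count filter (1227 higher, 1039 lower), 15 in the fit of all 11 libraries (12 higher, 3 lower) and 603 to 1785 with 1 library left out (282 to 983 higher, 312 to 802 lower). The Gata1 call was the only one among the 9 genes. It became 0 in the fit of all 11 libraries and in each leave-one-out fit, and 0 with DESeq2, which gave Gata1 no adjusted p. Without heterozygote 2 the direction turned for Hba-x (-0.039), Hbb-y (-0.011), Alas2 (-0.0055), Hba-a2 (0.15), the 7 globins together (-0.047) and the embryonic globins together (-0.0038). Without knockout-labelled replicate 2 it turned for Hba-x (-0.018), Hba-a2 (0.28) and Hbb-bh1 (-0.076). With 1 library left out the log2 fold changes ran from -0.039 to 0.27 for Hba-x, -0.48 to 0.28 for Hba-a2, -0.076 to 0.52 for Hbb-bh1, -0.011 to 0.19 for Hbb-y and -0.0055 to 0.27 for Alas2, from -0.047 to 0.15 for the 7 globins together and from -0.0038 to 0.21 for the embryonic ones. The causes were not tested.

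Whether replicate numbers pair the libraries was not settled. Deviations from the group means correlated at 0.180, 0.010 and 0.257 for gain and GFP libraries of the same number. GFP controls 1 and 3 correlated best with the gain library of their own number. GFP control 2 correlated best with gain replicate 1 (0.042). With the replicate block 948 genes were called in the loss comparison, and Gata1 was among them (log2 fold change 1.27, adjusted p = 0.0393). Depth limits Gata1, Hba-a2 and Hbb-bh1 most, since each held 0 to 3 counts in every E15.5 library.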

Other observations

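The make-up of red cell mRNA differed between the E12.5 and the sorted E15.5 libraries in more than the globin ratios. The ratios given here were chosen after their values were seen and carry no test. Age, electroporation, dissociation and sorting cannot be told apart in them. Slc4a1, which encodes the anion exchanger of the red cell membrane, had 1.39 to 1.91 counts per Alas2 count in the 5 E12.5 libraries. In the sorted E15.5 libraries it had 3, 4 and 0 counts beside 19, 21 and 46 of Alas2 in the GFP controls, and 6, 0 and 5 beside 23, 9 and 24 in the gain libraries, a ratio of 0 to 0.261. Gfi1b, Kel and Trim58 had 0 counts in all 6 sorted libraries, as Gata1 did. At E12.5 Gfi1b held 5 to 26 counts per library, Trim58 3 to 20 and Gata1 8 to 32. The pooled ratio of Alas2 between all E12.5 and all E15.5 libraries was 30.95. At that ratio such low counts could come to 0 without a change in make-up. Kel held 114 to 275 counts at E12.5.

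Hbb-bt and Hbb-bs, the near-identical adult beta genes, also changed their proportion. There were 0.576 to 0.837 Hbb-bt counts per Hbb-bs count at E12.5 and 0.242 to 0.374 at E15.5, with no overlap, in counts that the shared sequence makes uncertain.

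Among embryonic beta counts Hbb-bh1 made up 2.99% to 4.86% at E12.5. In GFP control 3, with 373 embryonic beta counts, it made up 0.268% (Wilson 95% interval 0.0473% to 1.5%), below each E12.5 library. The other E15.5 libraries held 3 to 95 embryonic beta counts, too few to place them.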
